A study of Mus musculus with 12 samples.

Results

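The contrast described here asks, gene by gene, whether the response of injured mouse sciatic nerve to loss of Nf1 differed between 2 regions of the same nerve. For each gene the difference between Nf1 KO and CTL in the distal stump was subtracted from the difference between Nf1 KO and CTL in the bridge, and this difference of differences, the interaction, is given on the log2 scale. A positive value means that the Nf1 KO minus CTL difference was higher in the bridge than in the distal stump. No readout chose the genes: all 12 of the 12 samples enter the contrast, and 19189 of the 30452 genes in the table passed the filter on low counts and were tested. The 4 groups were Nf1 KO bridge, CTL bridge, Nf1 KO distal stump and CTL distal stump, with 3 samples each, taken 14 days after injury. Nf1 KO mice were P0-CreERT2:YFPfl/fl:Nf1fl/fl, and CTL mice were P0-CreERT2:YFPfl/fl:Nf1+/+, so that both genotypes carried the inducible Cre and the YFP reporter. The Cre removes Nf1 from myelinating Schwann cells, while fibroblasts, vessels, immune cells and other cells of the nerve keep it. A sample combined 6 pieces of nerve, each 0.5 mm long, from several mice, and p-values measure the spread between these pooled samples.

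Nf1 encodes neurofibromin, which switches RAS off by speeding up its hydrolysis of GTP, and people who inherit 1 mutant copy of the gene develop tumours of the nerve sheath. After a nerve is severed, Schwann cells of the distal stump break down their myelin, proliferate and turn into repair cells that guide regrowing axons. The bridge is the new tissue that joins both stumps: matrix, fibroblasts, macrophages and blood vessels arrive first, and Schwann cells then migrate into it along the vessels. The study asked which signals of the injured nerve allow or oppose the growth of tumours once Nf1 is lost, and the interaction bears on that question by comparing the response in both places. In whole tissue, fewer cells of a type and less RNA per cell cannot be told apart.

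The libraries held 18821445 to 38981819 counts each. Nf1 itself was lower in Nf1 KO samples of both regions, as counted over the whole gene and not over the deleted exons. It was measured at 42.4, 54.7 and 46.4 CPM (counts relative to the effective library size) in Nf1 KO bridge, against 62.5, 67.4 and 60.0 CPM in CTL bridge, and at 42.5, 43.1 and 42.3 CPM in Nf1 KO distal stump, against 69.7, 57.0 and 67.3 CPM in CTL distal stump. The groups did not overlap in either region, and the log2 difference was -0.40 in the bridge (edgeR adjusted p = 0.0218) and -0.60 in the distal stump (edgeR adjusted p = 0.00560). The bridge call was lost, at adjusted p from 0.0566 to 0.0802, when Nf1 KO bridge 1 or 3 or CTL bridge 1 or 2 was left out. The interaction for Nf1 was 0.20 (95% interval -0.11 to 0.51, edgeR adjusted p = 0.595). Several libraries stood apart from the others of their group. CTL bridge 1 and 3 held far more skeletal muscle transcripts than the other libraries. Nf1 KO distal 1 stood out in its group, with a summed CPM of 4352 over 20 muscle genes, against 44.0 and 163. Fits without both muscle-rich CTL bridge libraries keep Nf1 KO distal 1 and leave CTL bridge 2 alone in its group. A call lost there cannot be told apart from the loss of replicates. Nf1 KO bridge 1 and Nf1 KO distal 1 held more neutrophil transcripts than the rest. The predicted gene Gm15662 made up 24.5% of the counts of Nf1 KO distal 1, against at most 9.00% in any other library.

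No gene passed the interaction test of edgeR at an adjusted p of 0.05 (0% of the 19189 tested), and the smallest adjusted p was 0.0873. At an unadjusted p under 0.05, edgeR counted 2534 genes (13.2%), of which 1169 had a positive interaction (6.09%) and 1365 a negative one (7.11%). The tools did not give the same answer: limma-voom called 0 genes, with 2375 at an unadjusted p under 0.05, while DESeq2 called 447 (2.33%), 204 positive (1.06%) and 243 negative (1.27%), with 2512 at an unadjusted p under 0.05 and 5600 genes left without an adjusted p. The values below are therefore differences of differences that did not pass the edgeR test over all genes, and the DESeq2 count is given beside them.

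The genotype effects that the interaction compares were called in larger numbers. In the bridge, 2795 genes were called by edgeR (14.6%), with 1498 higher (7.81%) and 1297 lower (6.76%) in Nf1 KO. In the distal stump, 1562 were called (8.14%), with 854 higher (4.45%) and 708 lower (3.69%). By these calls 1912 genes passed in the bridge alone, 679 in the distal stump alone, 878 in both with the same sign and 5 in both with opposite signs, and 15715 passed in neither. A call in one region without one in the other does not show that the regions differ, since the interaction itself passed for none of these genes. The counts depended on single libraries. In the bridge 941 higher and 700 lower genes were called without Nf1 KO bridge 1, and 856 and 756 without CTL bridge 1. Fewer still were called with CTL bridge 2 as the only CTL bridge library. In the distal stump the counts were 512 and 367 without Nf1 KO distal 2, 514 and 398 without Nf1 KO distal 3, 510 and 446 without CTL distal 1, and 505 and 393 without CTL distal 3.

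The effects in bridge and distal stump were positively related across genes. Over the 14454 genes with a mean log2 CPM of at least 1, the effects in both regions had a Pearson r of 0.404 and a Spearman rho of 0.483, a description across genes, which are not independent replicates. The median standard error of an interaction was 0.15, against 0.11 for the effect in each single region. Of the 447 genes that DESeq2 called for the interaction, 254 were called by DESeq2 in the bridge alone, 107 in the distal stump alone, 41 in both with the same sign and 19 in both with opposite signs, and 26 in neither. By edgeR, bridge-only calls also outnumbered distal-only calls over all tested genes, at 1912 against 679. The DESeq2 classes were not counted over all tested genes, so this split does not show which region carries the interaction.

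**Figure D1:**
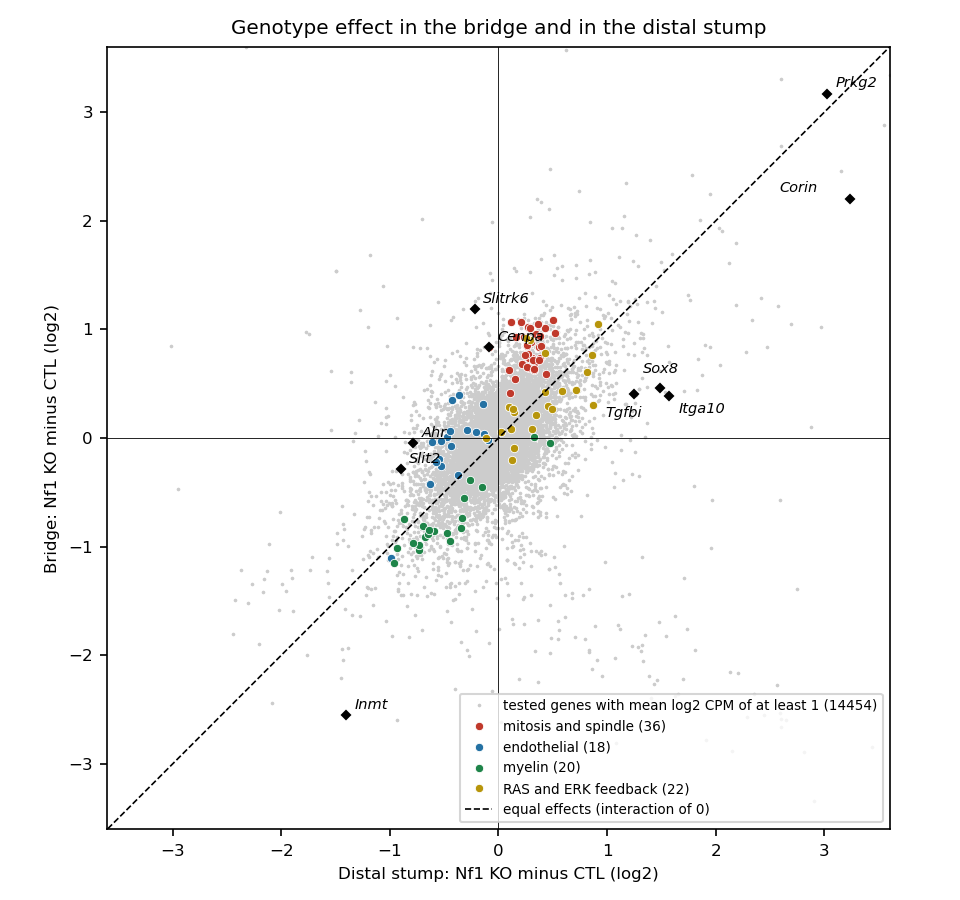
Nf1 KO minus CTL log2 difference in the bridge (y axis) against that in the distal stump (x axis) for 14454 genes, with mitosis, endothelial, myelin and RAS and ERK feedback members coloured, named genes as diamonds and a dashed line where both effects are equal; 10 genes lie outside the axes, which end at 3.6. Mitosis genes sit above the line at positive bridge values, 17 of 18 endothelial genes sit above it, and myelin and RAS and ERK feedback genes lie closer to it.

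Genes of cell division had positive interactions as a group. All 36 genes of mitosis and the spindle rose in the bridge in Nf1 KO, where 7.81% of all tested genes did, with a median log2 difference of 0.81. In the distal stump 6 of the 36 rose (Racgap1, Anln, Ccnb2, Ect2, Kif11 and Kif23), where 4.45% of all genes did, with a median of 0.29. All 36 interactions were positive, with a median of 0.49 against 0.00 over all tested genes. Of these, 32 had an unadjusted edgeR p under 0.05 (background 6.09%), 12 were called by DESeq2 (background 1.06%) and 0 by edgeR at the adjusted threshold.

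The genes of S phase and DNA replication followed with smaller values. Of 30 measured, 24 rose in the bridge in Nf1 KO (median log2 difference 0.57, background 7.81%). In the distal stump 3 rose (Tk1, Mcm3 and Mcm5, median 0.20, background 4.45%). The interaction was positive for 28 of the 30, with a median of 0.37. There were 17 with an unadjusted edgeR p under 0.05 (background 6.09%), and DESeq2 called 5 (background 1.06%): Rrm2, Ccne1, Mcm4, Mcm6 and Rrm1.

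Many genes of G2 and mitosis are switched by the DREAM, B-MYB and FOXM1 complexes, which reach their promoters through CCAAT boxes, bound by NF-Y, and through cell cycle genes homology regions (CHR). As examples from genes with positive interactions, the promoter stretches of 4 genes described below are shown. Each is the 150 bases just upstream of the transcription start in RefSeq, build GRCm38.p6, written from 5′ to 3′ on the strand of the gene, and capitals mark CCAAT or its reverse complement ATTGG and the CHR letters TTTGAA or TTCAAA.
Ccnb2, chr9:70421555-70421704, minus strand: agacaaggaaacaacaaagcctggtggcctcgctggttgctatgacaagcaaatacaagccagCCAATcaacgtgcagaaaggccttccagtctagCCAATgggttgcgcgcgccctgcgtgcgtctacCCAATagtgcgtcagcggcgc
Mki67, chr7:135716380-135716529, minus strand: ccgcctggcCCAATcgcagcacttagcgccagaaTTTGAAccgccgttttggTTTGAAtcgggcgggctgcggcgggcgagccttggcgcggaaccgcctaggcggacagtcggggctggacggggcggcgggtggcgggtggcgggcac
Ttk, chr9:83834539-83834688, plus strand: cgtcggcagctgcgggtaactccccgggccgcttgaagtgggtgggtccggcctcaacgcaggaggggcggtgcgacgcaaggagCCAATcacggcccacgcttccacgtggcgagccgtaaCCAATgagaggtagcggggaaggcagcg
Rrm2, chr12:24708104-24708253, plus strand: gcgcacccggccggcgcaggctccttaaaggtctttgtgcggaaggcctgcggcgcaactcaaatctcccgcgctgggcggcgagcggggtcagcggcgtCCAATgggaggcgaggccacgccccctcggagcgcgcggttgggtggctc
The stretch of Ccnb2 holds 3 CCAAT boxes, that of Ttk 2, and those of Mki67 and Rrm2 1 each, while Mki67 also holds 2 CHR matches. Over 250 bases upstream, beyond the printed stretch, Ccnb2 also has 1 CHR match and Mki67 has 3 CCAAT boxes in all. Over the 250 bases upstream of the start and on both strands, a CCAAT box stood in 24 of the 31 mitosis promoters found in the RefSeq table (77.4%), in 15 of 24 S phase promoters (62.5%) and in 34.5% of all 27025 promoters. A CHR match stood in 9 of the 31 mitosis promoters (29.0%), in 3 of the 24 S phase promoters (12.5%) and in 16.3% of all promoters. Among 10 endothelial promoters, a CHR match stood in 3 (30%) and a CCAAT box in 3 (30%). Neither motif contains the other. A match is a description of the sequence and not a measured binding site.

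Rrm2 (chr12:24708241-24714146; GRCm38, GENCODE M21), the small subunit of ribonucleotide reductase that makes the building blocks of DNA, had the smallest interaction p among positive genes. It had 28.1, 25.2 and 28.4 CPM in Nf1 KO bridge, against 13.3, 14.1 and 15.9 CPM in CTL bridge. The distal stump held 21.2, 20.8 and 20.6 CPM in Nf1 KO, against 19.8, 18.4 and 18.2 CPM in CTL. Every Nf1 KO bridge library was thus above all others, and the CTL bridge libraries were below all others. Rrm2 rose by 0.92 in the bridge (edgeR adjusted p = 1.51e-04), while the distal difference was 0.15 (adjusted p = 0.247). The interaction was 0.76 ± 0.10 (SE; 95% interval 0.53 to 0.99; edgeR adjusted p = 0.0873; DESeq2 adjusted p = 1.77e-05).

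Cenpa (chr5:30666777-30674830), the histone variant that marks centromeres, also had a positive interaction. It was at 42.8, 37.5 and 38.1 CPM in Nf1 KO bridge, against 21.9, 20.1 and 24.2 CPM in CTL bridge. Values in the distal stump were 32.7, 32.1 and 34.4 CPM in Nf1 KO, against 35.0, 39.7 and 30.5 CPM in CTL. The bridge groups did not overlap and the distal groups did. The interaction was 0.92 ± 0.14 (edgeR adjusted p = 0.0977; DESeq2 adjusted p = 1.77e-05), from 0.84 in the bridge and -0.09 in the distal stump.

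Cyclins and kinases of the division machinery had both regions' groups apart but by unequal distances. Ccna2, the cyclin that carries cells through S phase and into G2, was measured at 49.0, 43.2 and 52.4 CPM in Nf1 KO bridge, against 24.5, 23.5 and 27.6 CPM in CTL bridge. Distal values were 34.6, 37.1 and 36.5 CPM in Nf1 KO, against 32.1, 31.3 and 28.8 CPM in CTL. The interaction was 0.70 ± 0.12 (edgeR adjusted p = 0.106). Ttk, a kinase of the spindle checkpoint, was at 9.42, 9.26 and 10.5 CPM in Nf1 KO bridge, against 4.5, 4.52 and 4.87 CPM in CTL bridge, and at 8.14, 7.36 and 7.2 CPM in Nf1 KO distal stump, against 7.03, 6.70 and 5.94 CPM in CTL distal stump. Its interaction was 0.86 ± 0.15 (edgeR adjusted p = 0.106).

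Mki67, the proliferation antigen Ki-67, and Ccnb2, a mitotic cyclin, show the range among the members. Mki67 was at 38.9, 37.3 and 36.7 CPM in Nf1 KO bridge, against 17.6, 17.2 and 20.5 CPM in CTL bridge, without overlap, and at 33.1, 27.6 and 26.2 CPM in Nf1 KO distal stump, against 30.0, 21.6 and 20.6 CPM in CTL distal stump, with overlap through CTL distal 1. Ccnb2 was measured at 34.9, 28.2 and 31.2 CPM in Nf1 KO bridge, against 13.5, 15.3 and 15.5 CPM in CTL bridge. Distal stump libraries had 20.3, 21.2 and 20.9 CPM in Nf1 KO, against 16.4, 15.1 and 12.5 CPM in CTL. It rose in both regions, by 1.09 in the bridge and by 0.51 in the distal stump, where the call was lost, at adjusted p from 0.0518 to 0.0579, without Nf1 KO distal 2 or 3 or CTL distal 3. The interactions of both genes were 0.76 ± 0.20 for Mki67 and 0.58 ± 0.15 for Ccnb2 (edgeR adjusted p = 0.178 and 0.178).

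Other members span the same scale. Bub1, a spindle checkpoint kinase, had the highest interaction of the mitosis list at 0.96 ± 0.23, and Racgap1, which acts in cytokinesis, had the lowest at 0.15. Cdk1, the kinase that starts mitosis, had 0.77 ± 0.21, and Tpx2, a spindle assembly factor, had 0.73 ± 0.15. Pcna, the sliding clamp of replication, had an interaction of 0.14 and a bridge difference of 0.26 that did not pass (edgeR adjusted p = 0.0669).

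The same interaction of the division genes can be written as a turn in the difference between the regions, which is no further test. Within Nf1 KO, 10 of the 36 mitosis genes were higher in the bridge than in the distal stump and 0 were lower, where 7.78% of all genes were higher and 7.41% lower. Within CTL, 0 were higher and 4 were lower, where 5.15% of all genes were higher and 4.71% lower. For the 30 S phase genes the counts were 4 higher and 0 lower within Nf1 KO, and 0 higher and 5 lower within CTL. The mean log2 CPM over the mitosis list was 4.48 to 4.63 in the 3 Nf1 KO bridge libraries, against 3.68 to 3.88 in the CTL bridge libraries. It was 4.27 to 4.34 in the Nf1 KO distal libraries, against 3.89 to 4.12 in the CTL distal libraries. The groups did not overlap in either region, and CTL bridge was the lowest of the 4.

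Mitosis calls in the distal stump depended on single libraries, with 2 genes called without Nf1 KO distal 2, 3 without Nf1 KO distal 3 and 2 without CTL distal 3. For S phase the distal count was 1 without Nf1 KO distal 1, 1 without Nf1 KO distal 2, and 0 without Nf1 KO distal 3 or without CTL distal 3. Its interaction count of 17 became 11 without Nf1 KO bridge 3 and 10 without CTL distal 1. Without both muscle-rich CTL bridge libraries the median interactions were 0.53 for mitosis and 0.36 for S phase. Fewer genes of both lists were then called higher in the bridge.

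**Figure D2:**
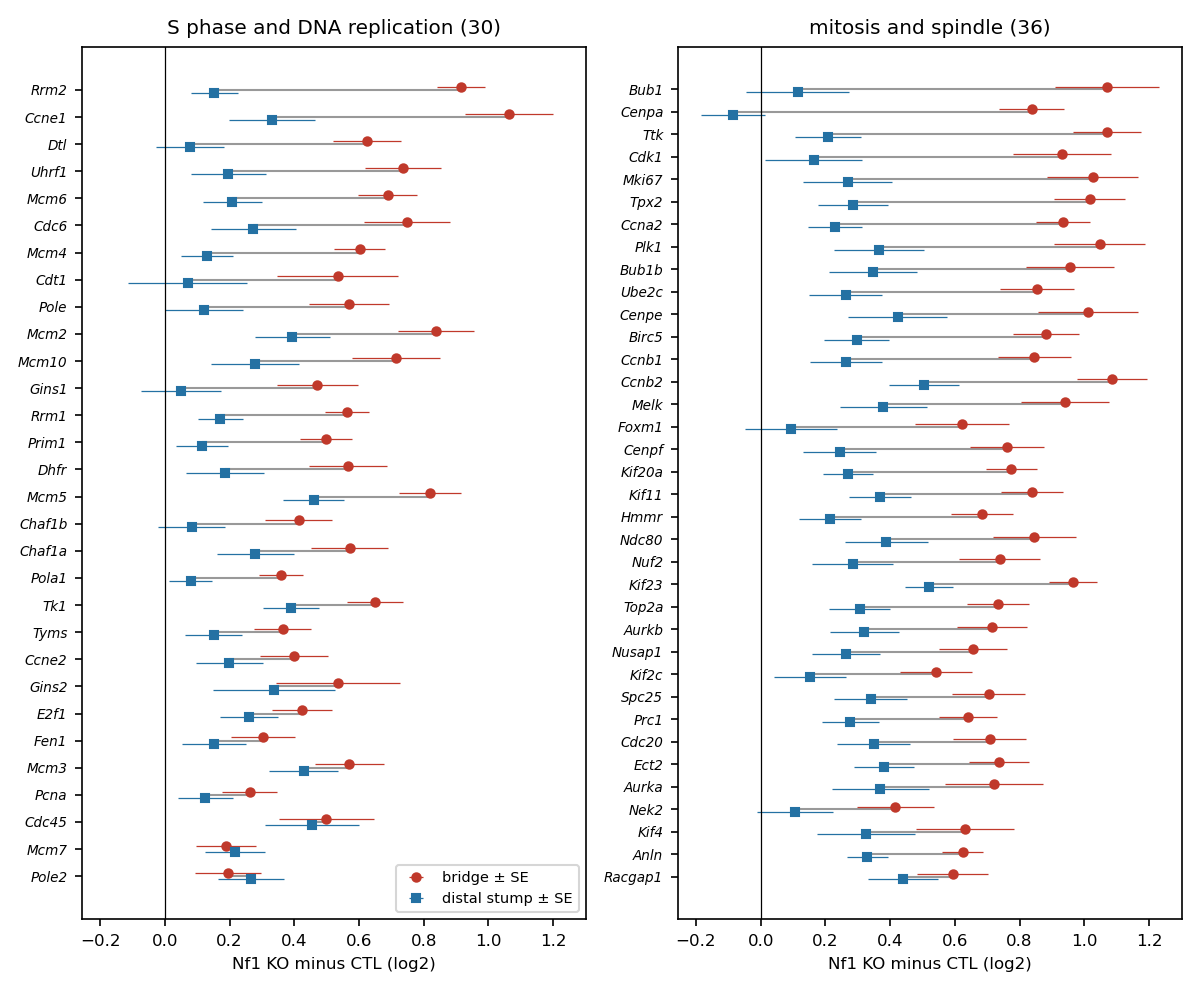
Nf1 KO minus CTL log2 difference with its standard error in the bridge and in the distal stump for each of the 30 S phase and 36 mitosis genes. All mitosis genes have a higher value in the bridge than in the distal stump, and Pole2 and Mcm7 of the S phase list have the opposite order.

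Blood vessel genes had a positive median interaction that came, by the list medians, mainly from lower values in the Nf1 KO distal stump. Of 18 endothelial genes, 9 fell in the Nf1 KO distal stump (median log2 difference -0.44, background 3.69%). In the bridge 1 rose (Eng, background 7.81%) and 1 fell (Cldn5, background 6.76%), with a median of -0.02. The interaction was positive in 17 of 18, with a median of 0.36, and 8 had an unadjusted edgeR p under 0.05 (background 6.09%). DESeq2 called 2, Eng and Plvap (background 1.06%). The number that fell in the distal stump was 2 without Nf1 KO distal 2 and 4 without Nf1 KO distal 3. It was 3 without CTL distal 2 and 2 without CTL distal 3. Without both muscle-rich CTL bridge libraries the median interaction was 0.45, and fewer genes were called lower in the distal stump.

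Eng, the endothelial co-receptor for TGF-beta and BMP ligands, had 28.7, 24.4 and 24.0 CPM in Nf1 KO bridge, against 18.6, 19.1 and 20.9 CPM in CTL bridge. Its distal stump values were 16.1, 13.7 and 14.1 CPM in Nf1 KO, against 18.3, 19.8 and 18.6 CPM in CTL. The order of the genotypes was opposite in the regions, with no overlap in either. The interaction was 0.76 ± 0.12 (edgeR adjusted p = 0.104; DESeq2 adjusted p = 2.20e-04). Plvap, a protein of the diaphragms of fenestrated vessels, had an interaction of 0.78 ± 0.19, from 0.35 in the bridge and -0.43 in the distal stump, neither of which passed its edgeR test.

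Kdr, the main receptor for VEGF, was at 16.3, 17.3 and 19.4 CPM in Nf1 KO bridge, against 17.5, 18.2 and 17.1 CPM in CTL bridge, and at 10.1, 7.58 and 7.31 CPM in Nf1 KO distal stump, against 10.8, 11.6 and 12.3 CPM in CTL distal stump. Pecam1, the adhesion protein CD31, was measured at 84.1, 85 and 89.9 CPM in Nf1 KO bridge, against 87.1, 82.8 and 102 CPM in CTL bridge, and at 67.7, 54.3 and 50.3 CPM in Nf1 KO distal stump, against 72.7, 74.5 and 85.7 CPM in CTL distal stump. For both genes the bridge groups overlapped and the distal groups did not. Kdr had a distal log2 difference of -0.48 and Pecam1 of -0.43, and their calls were lost in 11 and 14 of the 27 alternative settings. The block within genotype gave no region test, and the test against a log2 difference of 0.5 left region calls unchanged, so neither could lose a call. Calls were lost without Nf1 KO distal 2 or 3 or CTL distal 1, 2 or 3. So were they without Nf1 KO bridge 2 or CTL bridge 1 or 2, and for Pecam1 also without Nf1 KO bridge 1 or 3. Cdh5, the cadherin of endothelial junctions, differed by 0.05 in the bridge and by -0.20 in the distal stump, and neither passed. Egfl7, the most abundant of the 18, had an interaction of only 0.03 ± 0.15. It differed by -0.34 in the bridge and by -0.37 in the distal stump, without overlap in either region, and neither passed. Within Nf1 KO, 15 of the 18 endothelial genes were higher in the bridge than in the distal stump (background 7.78%). Within CTL 5 were (background 5.15%). These counts rearrange the same group values as the interaction and are no further test of it.

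**Figure D3:**
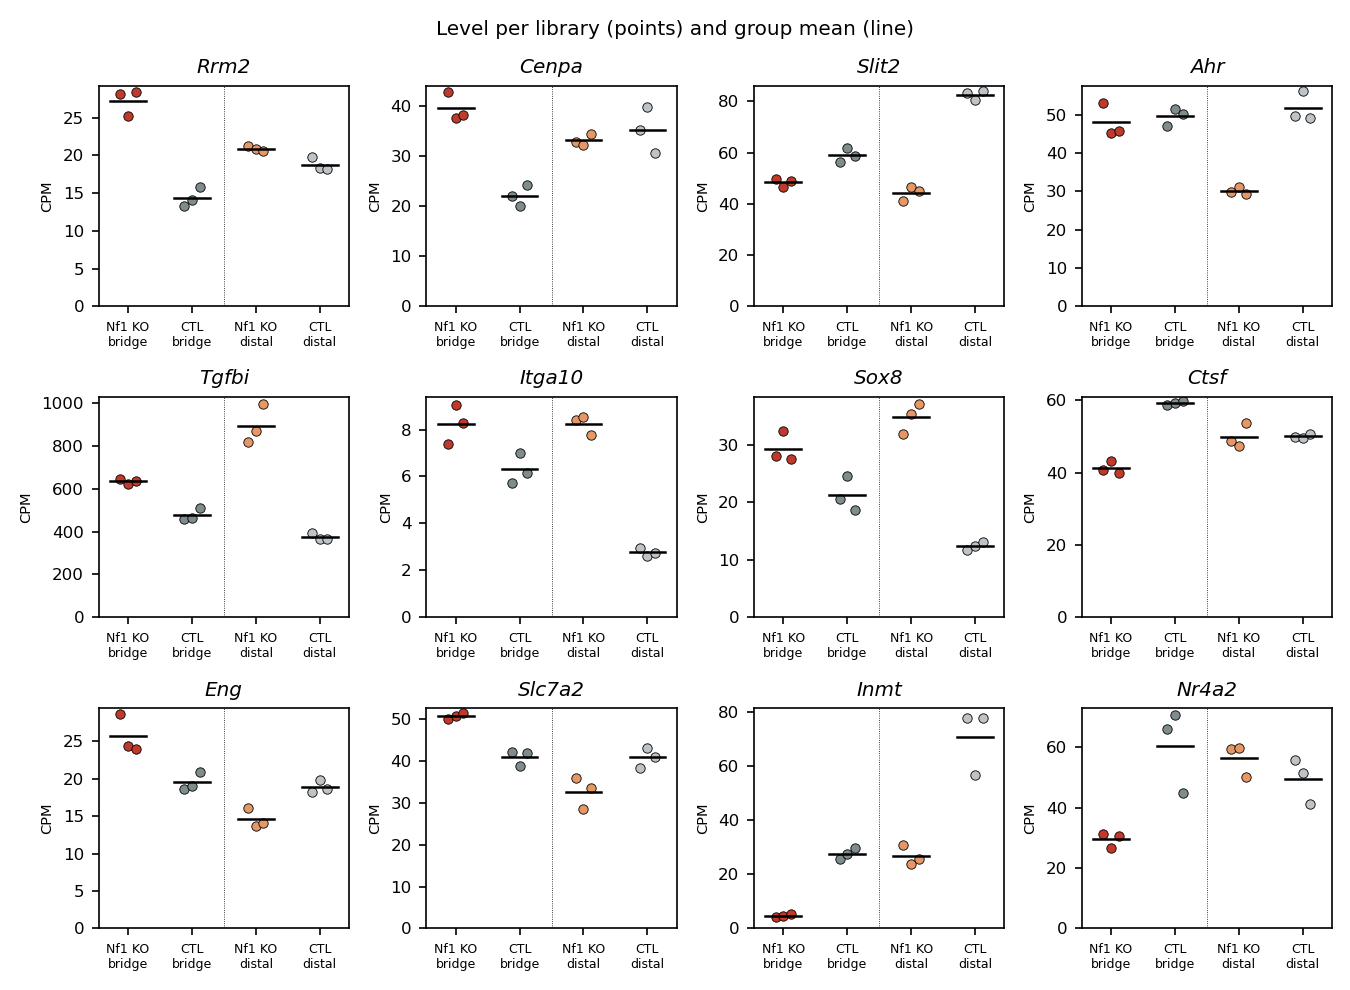
CPM in each of the 12 libraries for 12 genes described in the text, with Nf1 KO left of CTL in each region and lines for the group means of 3 libraries. Rrm2 and Cenpa have their highest mean in Nf1 KO bridge, Slit2 and Ahr have their lowest mean in Nf1 KO distal stump, Tgfbi is highest there, and Inmt is lowest in Nf1 KO bridge.

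Slit2 and Ahr had their lowest mean in the Nf1 KO distal stump. Slit2 (chr5:47983138-48307733), a secreted ligand of Robo receptors that steers axons and migrating cells, had 49.7, 46.5 and 48.8 CPM in Nf1 KO bridge, against 56.5, 61.9 and 58.6 CPM in CTL bridge. The distal stump held 41.2, 46.5 and 45.2 CPM in Nf1 KO, against 83.3, 80.5 and 83.9 CPM in CTL. No groups overlapped within a region, and the gene fell in both. It fell by 0.29 on the log2 scale in the bridge (edgeR adjusted p = 0.00991) and fell by 0.90 in the distal stump (adjusted p = 3.66e-05). The interaction was 0.61 ± 0.08 (95% interval 0.42 to 0.79; edgeR adjusted p = 0.0873; DESeq2 adjusted p = 1.63e-07).

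Ahr (chr12:35497974-35535038), a transcription factor activated by aromatic ligands, was at 53.1, 45.2 and 45.8 CPM in Nf1 KO bridge, against 47.0, 51.4 and 50.2 CPM in CTL bridge, with overlapping groups. It was measured at 29.7, 31.0 and 29.3 CPM in Nf1 KO distal stump, against 49.7, 56.2 and 49.3 CPM in CTL distal stump, without overlap. The distal difference of -0.78 passed (edgeR adjusted p = 3.48e-04) and the bridge difference of -0.05 did not (adjusted p = 0.750). The interaction was 0.74 ± 0.11 (edgeR adjusted p = 0.0923; DESeq2 adjusted p = 4.45e-06).

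Slit2 belongs to a list of 23 axon guidance genes with a median interaction of 0.11. At an unadjusted edgeR p under 0.05, 5 were positive (background 6.09%) and 1 was negative (background 7.11%). Besides Slit2 these were Slit3 (0.85 ± 0.26), another Robo ligand, Robo2 (1.21 ± 0.35), a Slit receptor, Sema4f (0.89 ± 0.28), a semaphorin, Unc5c (0.46 ± 0.17), a netrin receptor, and, with the negative sign, Slit1 (-1.11 ± 0.43). Slit2 alone of them was called by DESeq2. In the bridge 5 of the 23 rose (background 7.81%) and 8 fell (background 6.76%) in Nf1 KO. In the distal stump 3 rose (background 4.45%) and 5 fell (background 3.69%). Both bridge counts were lower with CTL bridge 2 as the only CTL bridge library. With 1 library left out, 3 rose in the bridge without CTL bridge 1, while 4 fell when Nf1 KO bridge 3 was left out and 5 when Nf1 KO bridge 1 or CTL bridge 2 was. In the distal stump 1 rose without Nf1 KO distal 2, Nf1 KO distal 3 or CTL distal 3. There 2 fell without Nf1 KO distal 2, CTL distal 2 or CTL distal 3, and 3 fell without Nf1 KO distal 1 or CTL distal 1.

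A further set of positive genes rose in the Nf1 KO bridge. Crym, which encodes the thyroid hormone binding protein mu-crystallin, was at 56.0, 38.6 and 43.9 CPM in Nf1 KO bridge, against 12.2, 10.7 and 12.1 CPM in CTL bridge, and at 26.3, 21.5 and 22.8 CPM in Nf1 KO distal stump, against 13.2, 13.3 and 12.9 CPM in CTL distal stump. It rose in both regions without overlap, with an interaction of 1.15 ± 0.18 (edgeR adjusted p = 0.101). Slitrk6, a transmembrane protein that acts in the growth of sensory neurites, was at 20.04, 18.9 and 19.4 CPM in Nf1 KO bridge, against 7.99, 6.94 and 10.6 CPM in CTL bridge. Values in the distal stump were 9.05, 5.99 and 6.77 CPM in Nf1 KO, against 7.80, 8.03 and 9.49 CPM in CTL, and these groups overlapped. The interaction was 1.41 ± 0.25 (edgeR adjusted p = 0.117).

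Tgfbr2 and Med14 had smaller positive interactions. Tgfbr2, the type II receptor for TGF-beta, was measured at 216, 209 and 199.8 CPM in Nf1 KO bridge, against 136, 159.8 and 156 CPM in CTL bridge, and at 138, 133 and 136 CPM in Nf1 KO distal stump, against 132, 146 and 149.99 CPM in CTL distal stump. The bridge groups were apart, the distal groups overlapped, and the interaction was 0.54 ± 0.10 (edgeR adjusted p = 0.122; DESeq2 adjusted p = 8.90e-05). Med14 (chrX:12675369-12762073), a subunit of the Mediator complex that links transcription factors to RNA polymerase II, rose by 0.36 in the bridge and differed by -0.05 in the distal stump, with an interaction of 0.41 ± 0.06 (edgeR adjusted p = 0.0873).

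The negative genes with the smallest p included 3 that rose in both regions with the larger log2 difference in the distal stump: Tgfbi, Sox8 and Itga10. Tgfbi (chr13:56609523-56639562), a secreted matrix protein that TGF-beta induces, had 643, 622 and 636 CPM in Nf1 KO bridge, against 460.5, 463 and 512 CPM in CTL bridge. Distal stump libraries had 819, 867 and 996 CPM in Nf1 KO, against 394, 367 and 366 CPM in CTL. The groups did not overlap, and the gene rose in both regions, by 0.41 log2 in the bridge (edgeR adjusted p = 0.00747) and by 1.25 in the distal stump (adjusted p = 3.13e-05). The interaction was -0.84 ± 0.11 (95% interval -1.09 to -0.60; edgeR adjusted p = 0.0873; DESeq2 adjusted p = 5.62e-11).

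Sox8 (chr17:25565892-25570686), a transcription factor of the SoxE family to which Sox10 of the Schwann cell lineage also belongs, was at 28.1, 32.3 and 27.5 CPM in Nf1 KO bridge, against 20.5, 24.6 and 18.6 CPM in CTL bridge. Its distal stump values were 31.9, 35.3 and 37.0 CPM in Nf1 KO, against 11.7, 12.4 and 13.1 CPM in CTL. The groups were apart in both regions, and CTL distal stump was the lowest. The interaction was -1.02 ± 0.15 (edgeR adjusted p = 0.0923; DESeq2 adjusted p = 1.77e-05). The bridge difference of 0.47 missed the threshold without Nf1 KO bridge 2 (adjusted p = 0.0585) or without CTL bridge 1 (adjusted p = 0.0596).

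Itga10 (chr3:96645584-96664519), a collagen receptor chain, was measured at 7.36, 9.06 and 8.30 CPM in Nf1 KO bridge, against 5.73, 7.01 and 6.16 CPM in CTL bridge, and at 8.41, 8.52 and 7.78 CPM in Nf1 KO distal stump, against 2.97, 2.62 and 2.75 CPM in CTL distal stump. Its interaction was -1.18 ± 0.16 (edgeR adjusted p = 0.0873), and its distal difference was 1.57 (adjusted p = 7.79e-05). The bridge difference of 0.39 had an edgeR adjusted p of 0.0484 and missed the threshold in 18 alternative settings. These included the fits without each of 10 of the 12 libraries, all but Nf1 KO bridge 1 and CTL bridge 2. Itgb3, a chain of vitronectin and fibrinogen receptors, rose by 0.42 in the bridge and by 1.08 in the distal stump, with an interaction of -0.66 ± 0.11 (edgeR adjusted p = 0.106). With CTL bridge 2 as the only CTL bridge library, the bridge differences of Slit2, Tgfbi, Tgfbr2, Itgb3 and Sox8 missed the threshold.

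Inhba, the subunit of activin A, rose by 0.85 in the bridge and by 1.90 in the distal stump, with an interaction of -1.05 ± 0.25 (edgeR adjusted p = 0.147; DESeq2 adjusted p = 0.0150). Wnt16, a secreted Wnt ligand, rose by 1.21 in the bridge and by 2.57 in the distal stump, with an interaction of -1.36 ± 0.37 (edgeR adjusted p = 0.195; DESeq2 adjusted p = 0.0312). Corin, a serine protease that activates natriuretic peptides, was at 19.2, 19.1 and 19.9 CPM in Nf1 KO bridge, against 4.25, 5.27 and 3.12 CPM in CTL bridge, and at 25.9, 25.2 and 28.6 CPM in Nf1 KO distal stump, against 2.58, 2.69 and 3.16 CPM in CTL distal stump. It was far higher in Nf1 KO in both regions, with an interaction of -1.03 ± 0.22 (95% interval -1.52 to -0.54; edgeR adjusted p = 0.136).

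Other negative genes fell in the Nf1 KO bridge. Ctsf (chr19:4855130-4860918), the lysosomal protease cathepsin F, was at 40.7, 43.2 and 39.8 CPM in Nf1 KO bridge, against 58.6, 59.2 and 59.9 CPM in CTL bridge. The distal stump held 48.8, 47.2 and 53.6 CPM in Nf1 KO, against 49.9, 49.4 and 50.7 CPM in CTL. The bridge groups were apart and the distal groups overlapped, with an interaction of -0.52 ± 0.08 (edgeR adjusted p = 0.0977; DESeq2 adjusted p = 2.81e-05). D10Jhu81e (chr10:78162066-78169782) had 43.7, 43.5 and 41.5 CPM in Nf1 KO bridge, against 61.7, 56.0 and 59.1 CPM in CTL bridge, and an interaction of -0.56 ± 0.08 (edgeR adjusted p = 0.0873).

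Inmt, an enzyme that methylates indole amines and a marker of nerve fibroblasts, was measured at 4.10, 4.70 and 5.28 CPM in Nf1 KO bridge, against 25.6, 27.3 and 29.7 CPM in CTL bridge. Values in the distal stump were 30.8, 23.8 and 25.7 CPM in Nf1 KO, against 77.7, 56.5 and 77.6 CPM in CTL. It fell in both regions without overlap, and Nf1 KO bridge was the lowest of the 4 groups. The interaction was -1.15 ± 0.20 (edgeR adjusted p = 0.117; DESeq2 adjusted p = 1.75e-04).

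Nr4a2, an orphan nuclear receptor, and Gpd1, a glycerol-3-phosphate dehydrogenase that is abundant in fat and muscle, fell in the bridge with overlapping distal groups. Nr4a2 had 31.4, 26.8 and 30.7 CPM in Nf1 KO bridge, against 65.9, 70.8 and 44.7 CPM in CTL bridge, with an interaction of -1.22 ± 0.24 (edgeR adjusted p = 0.122). Gpd1 was at 17.9, 18.5 and 24.9 CPM in Nf1 KO bridge, against 53.2, 34.3 and 62.0 CPM in CTL bridge, with an interaction of -1.34 ± 0.27 (edgeR adjusted p = 0.130). Its bridge call missed the threshold without both muscle-rich CTL bridge libraries (adjusted p = 0.0575).

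Genes of mitochondrial respiration encoded in the nucleus had a negative interaction throughout. All 17 values were negative, with a median of -0.39, 12 had an unadjusted edgeR p under 0.05 (background 7.11%), and DESeq2 called 5 (Cox4i1, Ndufv1, Cox6c, Atp5b and Ndufa4; background 1.27%). In the bridge 5 of the 17 fell in Nf1 KO (median -0.23, background 6.76%). In the distal stump 1 rose, Cox6c (median 0.10, background 4.45%). Cox4i1, a subunit of cytochrome c oxidase, was measured at 654, 624 and 669.9 CPM in Nf1 KO bridge, against 837, 743 and 784 CPM in CTL bridge, and at 794, 808 and 846 CPM in Nf1 KO distal stump, against 749, 773 and 702 CPM in CTL distal stump. The groups were apart in opposite orders, and the interaction was -0.42 ± 0.09 (edgeR adjusted p = 0.136). Atp5b, the catalytic subunit of ATP synthase, had -0.39 ± 0.12.

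The members with the most negative values, Cox8b (-3.14 ± 1.08) and Cox7a1 (-2.32 ± 0.77), are the muscle forms of their subunits, and skeletal muscle transcripts moved with the list. The summed CPM of 20 skeletal muscle genes was 711 to 2370.1 in Nf1 KO bridge, against 1749 to 12940.3 in CTL bridge, and 44.0 to 4352 in Nf1 KO distal stump, against 50.5 to 502 in CTL distal stump. Without both muscle-rich CTL bridge libraries, which leaves CTL bridge 2 alone, the median of the respiration list was -0.12. Fewer members then passed in the bridge or at an unadjusted p under 0.05. The count that fell in the bridge was 0 without Nf1 KO bridge 1, 2 without Nf1 KO bridge 2, 3 without Nf1 KO bridge 3, 0 without CTL bridge 1 and 3 without CTL bridge 3, and it was 12 when CTL bridge 2 was left out.

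Transcript length moved with the interaction as well. Genes whose longest transcript is at most 1 kb had a median interaction of -0.13, with 24 positive and 150 negative at an unadjusted p under 0.05 among 1048 genes. Genes over 8 kb had a median of 0.07, with 98 positive and 32 negative among 890. The respiration list had a median longest transcript of 1896 bases, against 2878 over all tested genes, and the mitosis list one of 3657. The part of length and of muscle in these interactions was not tested. A fit with the mean level of the skeletal muscle list as a covariate, chosen after seeing the data, is given with the processing settings below.

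Interferon-stimulated genes had mostly positive interactions with few calls. Of 20, 19 had a positive interaction (median 0.44). There were 4 with an unadjusted edgeR p under 0.05 (background 6.09%), and DESeq2 called 1, Isg15 (background 1.06%). In the bridge 6 rose in Nf1 KO (Irf9, Oasl2, Isg15, Stat2, Oas1a and Oas2, background 7.81%). In the distal stump 2 fell (Xaf1 and Cxcl10, background 3.69%). Isg15, a ubiquitin-like protein made in response to interferon, had 30.7, 24.3 and 32.0 CPM in Nf1 KO bridge, against 18.1, 15.3 and 18.4 CPM in CTL bridge. Distal stump libraries had 19.7, 17.1 and 21.3 CPM in Nf1 KO, against 18.4, 18.4 and 20.8 CPM in CTL. The bridge groups were apart, the distal groups overlapped, and the interaction was 0.74 ± 0.17 (edgeR adjusted p = 0.143).

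The number of interferon genes that rose in the bridge was 2 without Nf1 KO bridge 1, Nf1 KO bridge 3 or CTL bridge 2, and 3 without CTL bridge 1 or CTL bridge 3. It was also 2 without both neutrophil-rich Nf1 KO libraries, and fewer genes rose with CTL bridge 2 as the only CTL bridge library. In the distal stump 0 fell without Nf1 KO distal 1, 2 or 3 or without CTL distal 1 or 2, and 1 fell without CTL distal 3, Nf1 KO bridge 1 or Nf1 KO bridge 2. The interaction count at an unadjusted p under 0.05 was 9 without Nf1 KO bridge 2 and 7 without CTL bridge 1. Bst2, an antiviral membrane protein, had an interaction of 0.09 ± 0.26, which turned slightly negative without Nf1 KO bridge 3 (-0.03) or without Nf1 KO distal 2 (-0.02).

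Adipocyte genes had a negative interaction in all 13 members (median -0.64). Of these 1, Plin1, had an unadjusted edgeR p under 0.05 (background 7.11%), and DESeq2 called 0. That count of 1 became 8 without Nf1 KO bridge 3, 7 without CTL distal 3, 3 when CTL bridge 1 was left out, and 0 without Nf1 KO bridge 1 or 2, CTL bridge 3, Nf1 KO distal 2 or CTL distal 1 or 2. In the bridge 11 of the 13 fell in Nf1 KO (background 6.76%), and in the distal stump 1 did (background 3.69%). Adipoq, the hormone adiponectin, was at 19.3, 31.7 and 49.0 CPM in Nf1 KO bridge, against 61.8, 67.8 and 102 CPM in CTL bridge, and at 61.7, 75.0 and 56.3 CPM in Nf1 KO distal stump, against 69.5, 67.1 and 105 CPM in CTL distal stump. The bridge groups were apart and the distal groups overlapped. The bridge call of Adipoq was lost in 9 alternative settings, among them those without Nf1 KO bridge 1 or 2 or CTL bridge 2 or 3. The bridge count was 3 without Nf1 KO bridge 1, 2 without Nf1 KO bridge 2, 6 when CTL bridge 1 was left out, 4 without CTL bridge 3 and 1 without both muscle-rich CTL bridge libraries.

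Muscle and neutrophil transcripts had the largest list medians in either direction and varied widely between single libraries. The skeletal muscle list of 20 had a median interaction of -4.02. At an unadjusted edgeR p under 0.05, 8 were negative (background 7.11%) and 2 positive (background 6.09%). Acta1, skeletal actin, was measured at 506, 201 and 241 CPM in Nf1 KO bridge, against 1674, 276 and 1711 CPM in CTL bridge, and at 598, 1.59 and 18 CPM in Nf1 KO distal stump, against 1.68, 50.8 and 123 CPM in CTL distal stump. The groups overlapped in both regions, and the interaction of -3.76 turned to 0.67 without Nf1 KO distal 1.

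Myh7, the slow myosin heavy chain, went against most of the muscle list with an interaction of 5.92 ± 1.49 and was its one gene called by DESeq2. The neutrophil list of 12 had a median interaction of 1.09, with 1 gene, Il1r2, at an unadjusted p under 0.05 (background 6.09%). The interaction was positive in 9 of the 12 and negative in 3. S100a8, an abundant neutrophil protein, had 592, 17.0 and 15.9 CPM in Nf1 KO bridge, against 10.0, 22.9 and 11.0 CPM in CTL bridge, and its interaction of 2.83 turned to -0.83 without Nf1 KO bridge 1. Retnlg, the most abundant member, had an interaction of -0.92 ± 0.72. Its bridge groups overlapped, while the distal stump held 187, 192 and 196 CPM in Nf1 KO, against 115, 152.5 and 116 CPM in CTL. The list median ranged from -0.91 to 2.08 over the fits without 1 library.

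**Figure D4:**
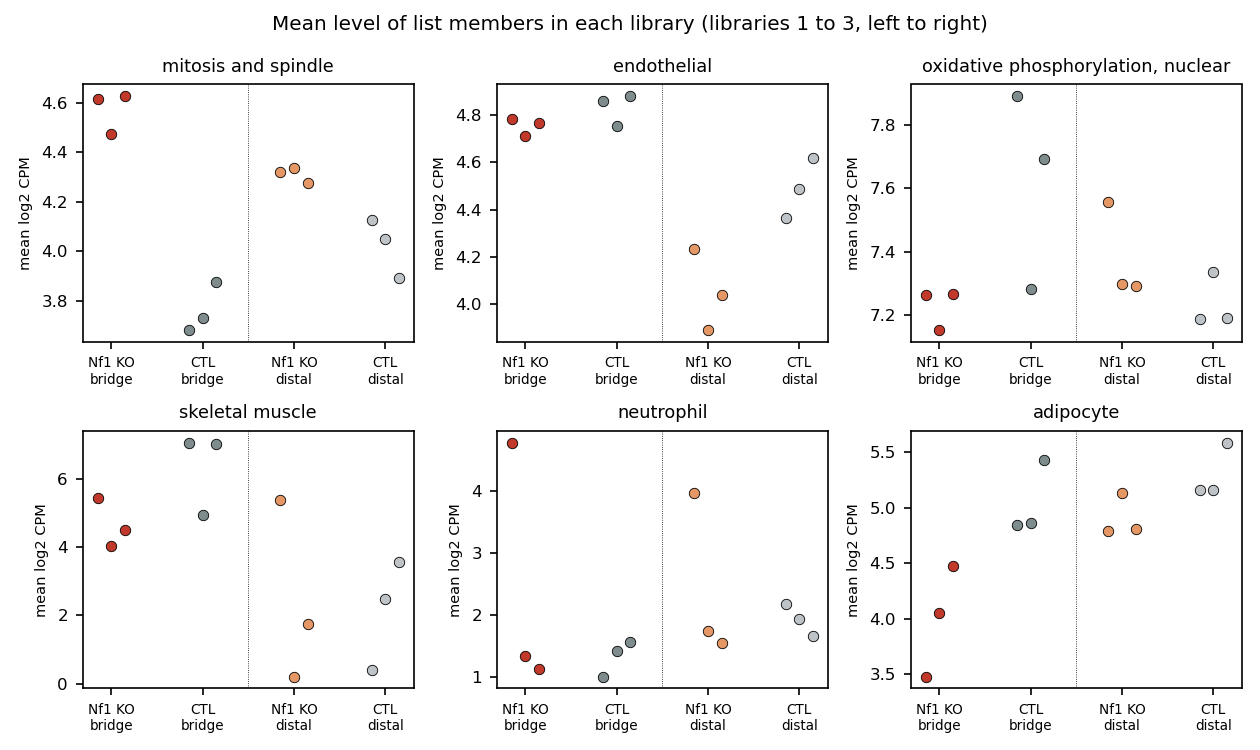
Mean log2 CPM of the mitosis, endothelial, respiration, skeletal muscle, neutrophil and adipocyte lists in each of the 12 libraries, with Nf1 KO left of CTL in each region. Mitosis values separate the 4 groups, while 2 CTL bridge libraries at about 7.00 and 7.05 stand above the rest for muscle and 1 Nf1 KO bridge library at 4.79 stands above the rest for neutrophils.

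In 5 genes both regions were called with opposite signs, and all libraries of each genotype were apart in each region, which a choice by these calls favours. Eng, given above, and Slc7a2, a transporter of cationic amino acids such as arginine, were higher in the bridge and lower in the distal stump in Nf1 KO. Slc7a2 was at 50.1, 50.7 and 51.6 CPM in Nf1 KO bridge, against 42.1, 38.8 and 42.1 CPM in CTL bridge, and at 36.1, 28.5 and 33.6 CPM in Nf1 KO distal stump, against 38.4, 43.2 and 41.1 CPM in CTL distal stump. Xrn1, an exonuclease that degrades RNA from the 5′ end, was measured at 36.2, 36.7 and 35.0 CPM in Nf1 KO bridge, against 32.5, 31.6 and 29.4 CPM in CTL bridge, and at 29.5, 29.7 and 26.6 CPM in Nf1 KO distal stump, against 33.6, 32.6 and 34.6 CPM in CTL distal stump. Their interactions were 0.63 ± 0.12 for Slc7a2 and 0.44 ± 0.08 for Xrn1 (edgeR adjusted p = 0.117 and 0.122).

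Ndufa6, an accessory subunit of respiratory complex I, and Timm8b, a small chaperone of protein import into mitochondria, had the reverse order. Ndufa6 was at 192, 181 and 193 CPM in Nf1 KO bridge, against 225, 203 and 226 CPM in CTL bridge, and at 238, 237 and 225 CPM in Nf1 KO distal stump, against 181, 194 and 178 CPM in CTL distal stump. Timm8b was at 109, 103 and 117 CPM in Nf1 KO bridge, against 144, 128 and 129 CPM in CTL bridge, and at 143, 147 and 159.8 CPM in Nf1 KO distal stump, against 131, 120.2 and 111 CPM in CTL distal stump. Their interactions were -0.55 ± 0.09 for Ndufa6 and -0.60 ± 0.11 for Timm8b (edgeR adjusted p = 0.101 and 0.122). The region calls of these genes were close to the threshold. The bridge call was lost in 4 alternative settings for Eng, 8 for Slc7a2, 13 for Xrn1, 13 for Timm8b and 17 for Ndufa6. The distal call was lost in 7, 12, 12, 12 and 1 in the same order. Leaving out any 1 library but Nf1 KO distal 1 ended at least 1 of these calls in 3 or more of the 5 genes, and leaving out Nf1 KO distal 1 ended the distal call of Xrn1.

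Of the 878 genes called in both with the same sign, the 95% interval of the interaction lay within -1 to 1 for 789 and within -0.5 to 0.5 for 468, and 117 had an unadjusted edgeR p under 0.05, beside 13.2% of all tested genes. Such intervals were not counted over all tested genes, so these counts do not show that the set responded more alike than other genes. Prkg2, a protein kinase activated by cyclic GMP, was measured at 10.0, 9.20 and 11.3 CPM in Nf1 KO bridge, against 1.28, 0.917 and 1.2 CPM in CTL bridge, and at 15.3, 16.3 and 17.9 CPM in Nf1 KO distal stump, against 2.16, 1.96 and 1.95 CPM in CTL distal stump. It was many times higher in Nf1 KO in both regions, and the interaction was 0.14 (95% interval -0.27 to 0.56). Skil, which encodes the SMAD repressor SnoN, was at 67.7, 71.0 and 72.1 CPM in Nf1 KO bridge, against 38.1, 37.6 and 38.3 CPM in CTL bridge, and at 53.6, 53.5 and 49.9 CPM in Nf1 KO distal stump, against 29.9, 31.9 and 30.6 CPM in CTL distal stump. Its interaction was 0.12 (95% interval -0.03 to 0.28).

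Cd276, an immune checkpoint protein of the B7 family, and Chsy1, a synthase of chondroitin chains, rose in both regions. Cd276 rose by 0.84 in the bridge and by 0.94 in the distal stump (interaction -0.10, 95% interval -0.27 to 0.08). Chsy1 rose by 0.92 in the bridge and by 0.95 in the distal stump (interaction -0.03, 95% interval -0.23 to 0.17). Spred1, which recruits neurofibromin to the membrane and dampens RAS signalling, was at 115, 112 and 119 CPM in Nf1 KO bridge, against 73.7, 79.5 and 73.3 CPM in CTL bridge, and at 124, 132 and 124 CPM in Nf1 KO distal stump, against 71.1, 71.7 and 72.6 CPM in CTL distal stump. Its interaction was -0.21 (95% interval -0.36 to -0.05; edgeR adjusted p = 0.260).

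Of 22 feedback genes of the RAS and ERK pathway, which neurofibromin restrains, 10 rose in the Nf1 KO bridge (median log2 difference 0.29; 7.81% of all genes rose) and 9 in the Nf1 KO distal stump (median 0.32; 4.45% of all genes rose), and 0 fell. The list median of the interaction was -0.06, which turned to 0.12 with library size alone as the scaling. At an unadjusted edgeR p under 0.05, 2 members were positive (background 6.09%) and 2 negative (background 7.11%), and DESeq2 called 0. Spry4, a feedback inhibitor of receptor signalling, rose by 1.05 in the bridge and by 0.92 in the distal stump (interaction 0.13, 95% interval -0.17 to 0.44). Dusp6, the phosphatase of ERK, rose by 0.43 in the bridge and by 0.58 in the distal stump (interaction -0.15, 95% interval -0.37 to 0.07). With CTL bridge 2 as the only CTL bridge library, fewer of the 22 were called in the bridge, and Dusp6 was not.

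In the Nf1 KO bridge 17 of the 20 genes of myelin fell (median -0.85; background 6.76%) and 12 in the Nf1 KO distal stump (median -0.61; background 3.69%). The interaction was negative in 19, with a median of -0.24. There were 3 negative at an unadjusted edgeR p under 0.05 (background 7.11%), and DESeq2 called 1, negative (background 1.27%). That count of 3 became 7 without CTL bridge 3 and 6 without Nf1 KO distal 1. It was 1 without Nf1 KO bridge 1, CTL bridge 2 or Nf1 KO distal 2, and 5 without both neutrophil-rich Nf1 KO libraries. Cldn19, a claudin of Schwann cell junctions, was at 132, 163 and 132 CPM in Nf1 KO bridge, against 315, 299 and 231 CPM in CTL bridge, and at 98.8, 122 and 125 CPM in Nf1 KO distal stump, against 182, 193 and 199 CPM in CTL distal stump. Its groups were apart in both regions, and it fell by 0.98 in the bridge and fell by 0.73 in the distal stump (interaction -0.25, 95% interval -0.66 to 0.17). The distal count was 4 without Nf1 KO distal 1, CTL distal 2 or CTL distal 3, 6 without Nf1 KO distal 2 and 7 without Nf1 KO distal 3.

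Perineurial genes, of the cells that wrap the nerve fascicles, also fell in both regions. Of 13, 10 fell in the Nf1 KO bridge (background 6.76%) and 9 in the Nf1 KO distal stump (background 3.69%). The distal count was 5 without Nf1 KO distal 2. The median interaction was -0.12, which turned to 0.06 with library size alone. At an unadjusted edgeR p under 0.05, 4 were negative (background 7.11%). DESeq2 called Msln (-0.72 ± 0.16) and Lypd2 (-0.61 ± 0.17), beside 1.27% of all genes with a negative sign.

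Matrix, growth factor and immune lists held single genes that DESeq2 called. Over all tested genes it called 1.06% with a positive and 1.27% with a negative interaction. Of 23 interstitial matrix genes, 16 rose (background 7.81%) and 2 fell (background 6.76%) in the Nf1 KO bridge. In the Nf1 KO distal stump 14 rose (background 4.45%), and the median interaction was 0.02. DESeq2 called Lox (0.73 ± 0.23), which cross-links collagen, Col14a1 (0.52 ± 0.17) and, with the negative sign, Sparc (-0.27 ± 0.08). Of 22 TGF-beta and activin genes, 8 rose (background 7.81%) and 2 fell (background 6.76%) in the bridge. In the distal stump 8 rose (background 4.45%) and 3 fell (background 3.69%). The median interaction was 0.10, and DESeq2 called Tgfbi, Inhba and Tgfbr2. Fewer genes of both lists were called in the bridge with CTL bridge 2 as the only CTL bridge library. Without CTL distal 1 or CTL distal 2, 9 interstitial matrix genes and 5 TGF-beta and activin genes rose in the distal stump. Of 16 basement membrane genes (median -0.01) DESeq2 called Col18a1 (0.45 ± 0.14) and Col4a5 (-0.65 ± 0.17).

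Of 28 chemokines and cytokines (median 0.23) DESeq2 called Cxcl12 (0.87 ± 0.20), a chemokine that attracts leukocytes and guides vessels, which fell by 0.69 in the distal stump and differed by 0.18 in the bridge. Of 23 growth factors (median 0.14) it called Igf1 (0.36 ± 0.11), which rose by 0.84 in the bridge and by 0.48 in the distal stump. Of 17 nerve fibroblast genes (median 0.21) it called Thy1 (0.83 ± 0.24) and Col14a1 with the positive sign and Inmt and Gsn (-0.43 ± 0.11) with the negative sign. Of 14 genes of the Schwann lineage (median -0.17) it called 1 with the negative sign and 1 with the positive sign, Gfra3 (1.12 ± 0.27), a receptor for artemin, and of 17 hypoxia and glycolysis genes (median -0.19) it called Aldoa (-1.47 ± 0.42), a glycolytic enzyme abundant in muscle.

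**Figure D5:**
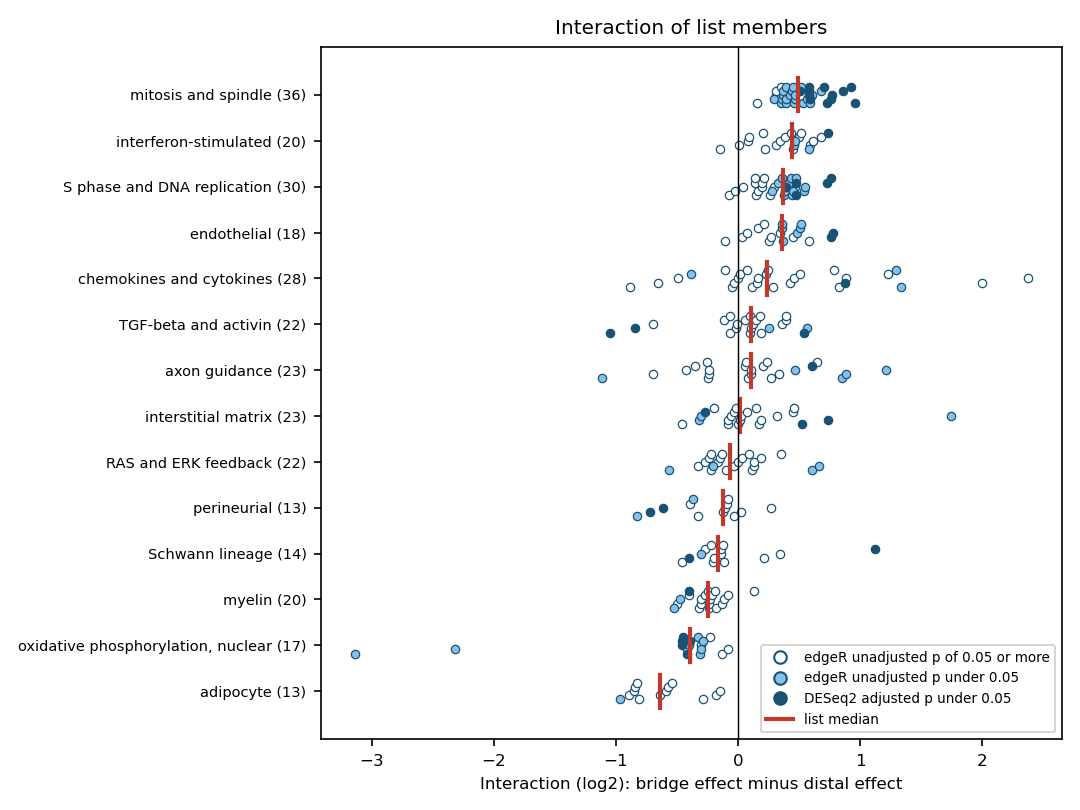
Interaction log2 value of each member of 14 gene lists, with open, light and dark points for an unadjusted edgeR p of at least 0.05, an unadjusted edgeR p under 0.05 and a DESeq2 adjusted p under 0.05, and a red line at the list median. All 36 mitosis members lie above 0, all 17 respiration members lie below 0, and RAS and ERK feedback members lie on both sides.

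The remaining lists had at most 3 members in either direction at an unadjusted edgeR p under 0.05, and apart from Wnt16 of the 21 Wnt genes none was called by DESeq2. By median interaction they ran from 0.29 for 7 lymphatic endothelial genes, 0.26 for 16 immediate early genes, 0.19 for 15 genes of MHC class II and dendritic cells, 0.14 for the Wnt list and 0.14 for 15 T and NK cell genes to 0.06 for 13 genes of endoplasmic reticulum stress. Medians near 0 were 0.04 for 20 cholesterol synthesis genes, 0.04 for 12 CDK inhibitors and D cyclins, 0.02 for 17 BMP pathway genes, -0.01 for 21 repair Schwann cell genes, -0.02 for 20 macrophage genes, -0.02 for 7 B and plasma cell genes, -0.02 for 10 neuronal genes and 0.00 for 17 lysosome genes. Below these came -0.07 for 13 genes of pericytes and smooth muscle, -0.10 for 15 HOX genes, -0.18 for 6 melanocyte genes, -0.19 for 12 genes of the mitochondrial genome, -0.29 for 13 genes of tendon and cartilage, -0.30 for 9 mast cell genes, -0.56 for 7 erythroid genes and -0.69 for 3 keratinocyte genes. With library size alone as the scaling the median of all tested genes moved by 0.19, and every list median from -0.19 to 0 except that of the melanocyte list changed sign with it.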

How the data were processed

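Per the labels' protocols, DNase-treated total RNA without ribosomal RNA was made into directional libraries by 15 cycles of PCR. Of the tools, cutadapt 1.2.1, CASAVA 1.8.2, DESeq2 and build mm10 appear in the submitters' processing notes. An aligner and a counter are not given in the sources used. The authors deposited 1 table of estimated counts, used unrounded. edgeR 4.0.16 (R 4.3.3) fitted all 12 libraries with 1 coefficient per group (TMM factors, filterByExpr, quasi-likelihood test, Benjamini-Hochberg at 0.05 over 19189 genes). CPM are scaled by TMM. DESeq2 1.42.0 on rounded counts, limma 3.58.1, other scalings and filters, a replicate block and leaving out libraries were alternatives. The contrast and 42 gene lists were chosen with earlier results of these data known. Genes named were Nf1, the 5 with the smallest interaction p in each direction (mean log2 CPM of at least 1), the most abundant members of lists with a median of 0.3 or more in size, genes called in both regions, and members given as examples after their values were seen. Positions are from GENCODE M21 (GRCm38), which holds 30123 of the IDs, and promoters from RefSeq GRCm38.p6. Intervals and p-values reflect 3 samples per group.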

Additional observations from a re-analysis of the deposited data

Results flagged for a closer look

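In 5 genes that edgeR called in both regions with opposite signs, every Nf1 KO library lay on one side of every CTL library in the bridge and on the other side in the distal stump. Eng had an interaction of 0.76, Slc7a2 of 0.63 and Xrn1 of 0.44, with higher values in Nf1 KO bridge and lower values in Nf1 KO distal stump. Ndufa6 had an interaction of -0.55 and Timm8b of -0.60, with the reverse order. The difference between the regions was tested for each and did not pass, at edgeR adjusted p from 0.101 to 0.122, while DESeq2 called all 5 at adjusted p from 1.62e-07 to 0.00239. The DESeq2 calls rest on the same counts that picked the genes. The bridge call was lost in 4 to 17 alternative settings and the distal call in 1 to 12.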

How the results depend on the processing

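The interaction count depended on the test. It was 447 by DESeq2, with called members in 18 lists, and 16 with the mean level of the skeletal muscle list as a covariate, with called members in 3 lists; this covariate was chosen after seeing the data, and 13 of the 16 genes were also called by DESeq2. The count stayed at 0 under the other edgeR settings and limma-voom, including each fit without 1 library (smallest adjusted p from 0.0543 to 0.272; 2116 to 2870 genes at an unadjusted p under 0.05). A test against a log2 difference of 0.5 left 486 at an unadjusted p under 0.05. The cause of these differences was not tested. The replicate numbers were not taken to pair the samples, since the deviations of same-numbered libraries correlated at over 0.1 in 6 of 18 pairs (-0.139 to 0.259). Between bridge and distal stump the 3 Nf1 KO pairs were all over 0.1 (0.117 to 0.233) and the 3 CTL pairs were not (-0.121 to -0.00849). That 8 of 12 libraries correlated best with their own number is a hint from the data, not the design. The replicate block called 0 genes (2350 at an unadjusted p under 0.05), and a block within genotype 0 (2226).

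Of 56 named genes, 11 changed the sign of a small or unstable interaction in some of 27 settings. With library size alone Krt10 gave 0.118, Cd276 0.0928, Chsy1 0.153 and Dusp6 0.0209. Without both muscle-rich CTL bridge libraries Retnlg gave 0.185 and Hbb-bs 0.189, and without both neutrophil-rich Nf1 KO libraries Cma1 gave 0.183, Bst2 -0.0271 and Acta1 0.153. Acta1 gave 1.31 with the muscle covariate. Over the fits without 1 library the interaction ran from -0.11 to 0.12 for Egfl7, -1.26 to 0.17 for Retnlg, -0.0257 to 0.27 for Bst2, -0.16 to 0.0497 for Krt10, -0.0687 to 0.0345 for Chsy1, -4.92 to 0.67 for Acta1 and -0.83 to 5.31 for S100a8. The median standard error of an interaction was 0.15 with 3 libraries per group.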
